A study of Rattus norvegicus with 6 samples.

Results

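In the rat kidney inner medulla, the genes Crk, Sdc4, Rhog, Wfdc10a, Tcf7l1 and Clec2l had their highest group mean in animals infused with dDAVP for 5 d and a lower mean 3 h after the infusion was stopped. They are 6 of the 14168 genes that could be named from a single gene symbol on a whole-transcript gene array. They were chosen by these same values, that is, by their log2 intensities in the 3 groups, so their differences between the groups are given as descriptions without a test. Where a gene had several probe sets, the brightest on average was taken. The 6 genes had 8 probe sets between them, 3 of these for Tcf7l1.

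Each of the 3 groups held 2 arrays, all from male Sprague-Dawley rats of 200 to 250 g that carried an osmotic minipump under the skin of the neck. Vehicle rats received saline at 1 µl/h for 5 d. Desmopressin (dDAVP), which stimulates the V2 receptor of vasopressin, was infused at 40 ng/h for 5 d in the dDAVP group. The withdrawal group had the same infusion, after which the pump was removed under light enflurane anaesthesia and the rats were kept in metabolic cages for another 3 h. That procedure is described for the withdrawal group only, so it and the end of the infusion cannot be told apart. Whether replicate arrays come from different rats is not stated, so all errors measure the spread between these arrays, which may be technical, and their number limits the precision.

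Vasopressin acts on the collecting duct through the V2 receptor, which raises cyclic AMP and activates protein kinase A, and this moves the water channel aquaporin-2 to the apical membrane and raises its transcription. The 6 genes fall into 3 roles. Crk, Rhog and Sdc4 act between the cell surface and the actin cytoskeleton: Crk is an SH2 and SH3 domain adaptor that links tyrosine-phosphorylated scaffolds to exchange factors of small GTPases, Rhog is a small GTPase that acts upstream of Rac through ELMO and DOCK proteins, and Sdc4 is syndecan-4, a heparan sulphate proteoglycan of focal adhesions. Tcf7l1 is a DNA-binding partner of beta-catenin that mostly represses Wnt target genes. Wfdc10a is a small secreted protein with a whey acidic protein (WAP) domain, and Clec2l is a C-type lectin-like membrane protein.

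For the first 3 genes the sequence just before the transcript start is shown, since they are the genes whose dDAVP arrays both lay above all other arrays. The sequences are those of RefSeq, build GRCr8, and are written 5′ to 3′ on the gene's own strand. The window for Sdc4 covers the 250 bases before the start, chr3:173592924-173593173, minus strand, with the GC box GGGCGG in capitals. The window for Rhog covers 30 bases, chr1:166042308-166042337, minus strand, with the same motif in capitals as it reads on the other strand. The window for Crk covers 30 bases, chr10:61028790-61028819, plus strand, with the core TGACG of the cyclic AMP response element in capitals as it reads on the other strand.
Sdc4: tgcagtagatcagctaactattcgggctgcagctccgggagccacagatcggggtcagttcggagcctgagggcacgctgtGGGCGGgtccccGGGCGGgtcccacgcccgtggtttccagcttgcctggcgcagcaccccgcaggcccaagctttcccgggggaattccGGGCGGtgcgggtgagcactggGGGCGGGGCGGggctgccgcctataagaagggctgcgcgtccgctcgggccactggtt
Rhog: ctggtCCGCCCCGCCCgggccggcCCGCCC
Crk: cgggtagagagcgCGTCAtttccggtgggg

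RefSeq held a start sequence for 5 of the 6 genes, all but Wfdc10a. Both strands of the 250 bases before each start were searched for 5 motifs, counting matches that overlap. The full cyclic AMP response element TGACGTCA was in none of the 5 and in 1.59% of all 33469 start sequences. Its core TGACG was found in Crk alone, with its first base 114 bases before the start, against 18.2% of all. The AP-1 site TGANTCA (6.34% of all) and the TCF site CTTTGAT (3.15% of all) were in none of the 5. The GC box GGGCGG, present in 30.5% of all start sequences, was in all 5, with 5 matches each in Sdc4 and Rhog, 3 in Crk and 1 each in Tcf7l1 and Clec2l. The 5 sequences were also rich in G and C, from 70.0% in Sdc4 to 85.2% in Clec2l, against a median of 51.2% over all start sequences. These matches describe the letters of a window and say nothing of which protein binds there.

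The arrays and the tissue were checked before the genes were compared. Median intensities over all probe sets ran from 156 to 182, with the lowest 2 values in the dDAVP arrays (156 and 165). The median gene differed by -0.11 log2 for dDAVP minus vehicle, by 0.14 for withdrawal minus dDAVP and by 0.03 for withdrawal minus vehicle, and the values of the 6 genes below are as deposited and not corrected for these shifts. Vehicle replicate 1 and dDAVP replicate 2 were found apart from the other 4 arrays in earlier work on these data, so results are also given without both. Of 40 markers of 11 cell types, 36 were measured. The principal cell markers Aqp2, Aqp4, Avpr2 and Fxyd4 were at 11.04 log2 or above in every array. Hsd11b2 ran from 10.43 to 11.24 and Scnn1g from 9.04 to 9.57. The inner medullary urea transporter Slc14a2 was at 11.79 or above. The thick ascending limb marker Umod was at 9.98 and 10.03 in vehicle, 10.02 and 11.18 in dDAVP, and 10.50 and 9.80 in withdrawal. Slc12a1, of the same segment, was at 9.46 and 10.61, 10.11 and 10.52, and 10.69 and 9.63. The part of this segment in the differences of the 6 genes was not tested. The thin limb marker Aqp1, the intercalated cell factor Foxi1 and the basal urothelial keratin Krt5 were not analysed here. Aqp2, the best-known target of vasopressin in this tissue, was at 13.16 and 13.23 in vehicle, 13.40 and 13.30 in dDAVP, and 13.23 and 13.14 in withdrawal.

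Crk had log2 intensities of 9.13 and 9.43 in vehicle, 10.19 and 9.69 in dDAVP, and 9.37 and 9.19 in withdrawal. Both dDAVP arrays lay above the other 4, and the vehicle and withdrawal arrays covered nearly the same range. The group means were 9.28 ± 0.22, 9.94 ± 0.36 and 9.28 ± 0.13 (SD, n = 2). On the log2 scale dDAVP minus vehicle was 0.66 ± 0.20 (moderated SE), a 1.58-fold higher level, and withdrawal minus dDAVP was -0.66 ± 0.20, a 1.58-fold lower one. In bulk tissue a change in the share of a cell type and a change in the RNA per cell cannot be told apart, for this and all values that follow.

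Sdc4 had log2 intensities of 10.80 and 10.98 in vehicle, 11.79 and 11.25 in dDAVP, and 10.95 and 10.28 in withdrawal. Again both dDAVP arrays were the highest of the 6, and withdrawal replicate 2 was the lowest. The means were 10.89 ± 0.13, 11.52 ± 0.38 and 10.61 ± 0.47. The mean was 1.55-fold higher in dDAVP than in vehicle (0.63 ± 0.26 log2) and 1.87-fold lower in withdrawal than in dDAVP (-0.91 ± 0.26 log2).

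Rhog had log2 intensities of 9.54 and 9.82 in vehicle, 10.43 and 10.05 in dDAVP, and 9.84 and 9.37 in withdrawal. The order of the arrays was that of Sdc4 at the top and bottom, with dDAVP replicate 1 highest and withdrawal replicate 2 lowest. The means were 9.68 ± 0.20, 10.24 ± 0.26 and 9.61 ± 0.33, with differences of 0.56 ± 0.21 log2 for dDAVP minus vehicle and -0.63 ± 0.21 log2 for withdrawal minus dDAVP.

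Wfdc10a had the widest range of the 6 genes. Its log2 intensities were 10.10 and 11.07 in vehicle, 10.85 and 11.48 in dDAVP, and 9.79 and 9.08 in withdrawal. The vehicle and dDAVP arrays overlapped, since vehicle replicate 2 lay above dDAVP replicate 1, whereas both withdrawal arrays lay below the other 4. The means were 10.58 ± 0.69, 11.16 ± 0.44 and 9.43 ± 0.51. Withdrawal was 3.32-fold below dDAVP (-1.73 ± 0.39 log2), and dDAVP minus vehicle was 0.58 ± 0.39 log2.

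Tcf7l1 had log2 intensities of 9.70 and 9.43 in vehicle, 9.62 and 10.17 in dDAVP, and 9.30 and 9.11 in withdrawal. Only dDAVP replicate 2 was clearly above vehicle, and vehicle replicate 1 lay above dDAVP replicate 1. The withdrawal arrays were the lowest 2 of the 6. The means were 9.57 ± 0.19, 9.90 ± 0.39 and 9.21 ± 0.13, with differences of 0.33 ± 0.20 log2 for dDAVP minus vehicle and -0.69 ± 0.20 log2 for withdrawal minus dDAVP.

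The other probe sets of Tcf7l1 showed less of this pattern. The second, with a mean of 7.94 over the 6 arrays against 9.56 for the one used, differed by 0.17 log2 for dDAVP minus vehicle and by -0.22 for withdrawal minus dDAVP. The dimmest, with a mean of 6.78, went the other way, by -0.18 and 0.13. When the 3 probe sets were averaged, withdrawal minus dDAVP was -0.26, less than the -0.69 of the brightest alone.

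Clec2l had log2 intensities of 8.69 and 8.46 in vehicle, 8.67 and 8.84 in dDAVP, and 8.03 and 8.21 in withdrawal. The vehicle and dDAVP arrays overlapped, and both withdrawal arrays lay below all others. The means were 8.58 ± 0.17, 8.75 ± 0.12 and 8.12 ± 0.13. The difference of dDAVP from vehicle was the smallest of the 6 genes, 0.18 ± 0.13 log2, while withdrawal minus dDAVP was -0.63 ± 0.13 log2.

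**Figure D1:**
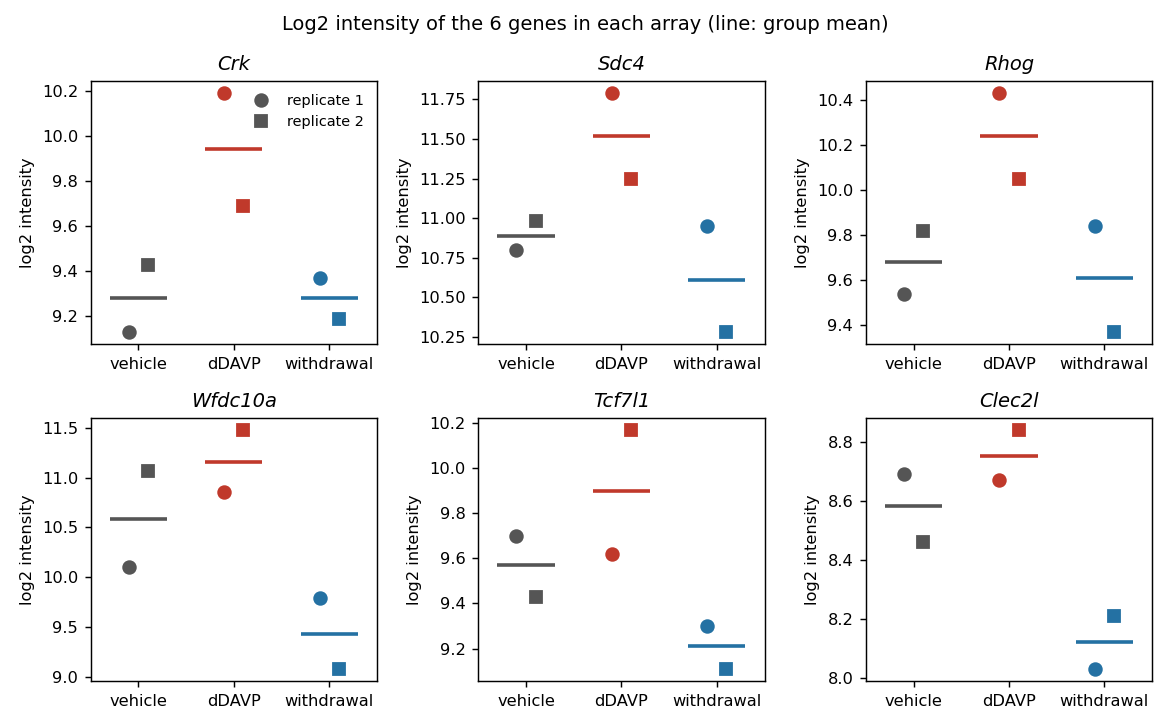
Log2 intensity (vertical axis, a separate scale for each gene) of the 6 genes in the 2 arrays of each group, with circles for replicate 1, squares for replicate 2 and a line at the group mean. Both dDAVP arrays of Crk, Sdc4 and Rhog lie above the other 4 arrays, whereas the dDAVP and vehicle arrays of Wfdc10a, Tcf7l1 and Clec2l overlap.

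The pattern therefore differed between the genes on the vehicle side. In 3 of the 6, Crk, Sdc4 and Rhog, both dDAVP arrays lay above both vehicle arrays, an order held by 4.80% of all genes. In all 6 both withdrawal arrays lay below both dDAVP arrays, against 8.06% of all genes. Both orders together, with the dDAVP arrays above all other arrays, held for the same 3 and for 445 genes in all (3.14%). A level at least 1.5-fold above vehicle in dDAVP was reached by 2 of the 6, Crk and Sdc4, and by 0.134% of all genes. A level at least 1.5-fold below dDAVP in withdrawal was reached by all 6 and by 0.268% of all genes, and both folds together by 0.0423%. The genes were chosen by the same values that these orders and folds are taken from, and nothing is read from their counts. The 2 differences share the dDAVP arrays, so they are not independent of each other. The choice left a median difference of 0.57 log2 for dDAVP minus vehicle over the 6 genes, against -0.11 for all genes, and of -0.67 for withdrawal minus dDAVP, against 0.14.

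**Figure D2:**
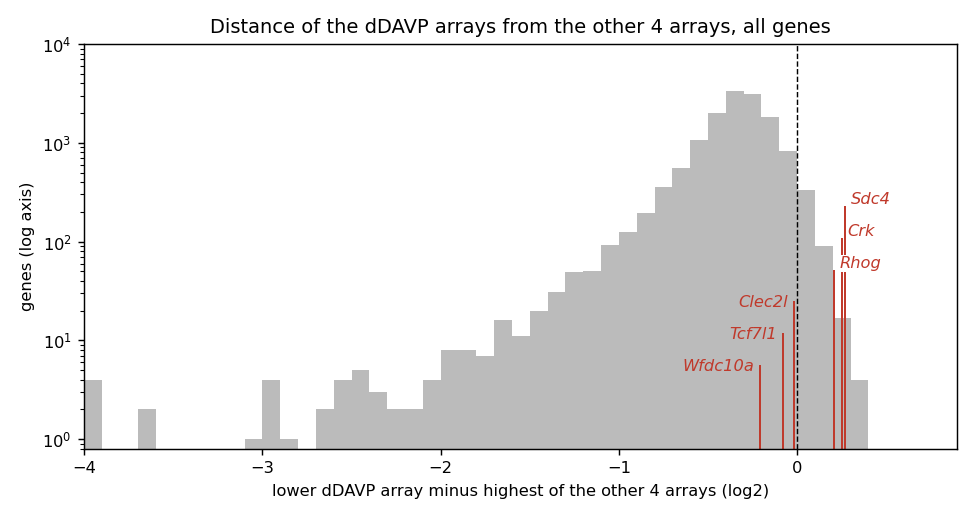
Number of genes (vertical log axis) by the lower dDAVP array minus the highest of the other 4 arrays (horizontal axis, log2), over 14168 genes, with the 6 genes marked in red at arbitrary heights and the 4 genes below -4 counted in the leftmost bar. Sdc4 (0.27), Crk (0.25) and Rhog (0.21) lie above 0, and Clec2l (-0.02), Tcf7l1 (-0.08) and Wfdc10a (-0.21) below.

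The distance of the dDAVP arrays from the rest put Sdc4 at place 7, Crk at place 11 and Rhog at place 18 among all genes, while Clec2l, Tcf7l1 and Wfdc10a were at places 583, 1104 and 3475. The 8 other named genes with the largest distances were Ubald1 (0.37 log2), the deubiquitinase Josd1 (0.36), the TGF-beta binding protein Vasn (0.32), the RNA-binding protein Hnrnph2 (0.31), the ubiquitin ligase Rnf167 (0.29), the chromatin protein Phf1 (0.29), Spaca6 (0.27) and Klhdc3 (0.27). Their differences of dDAVP from vehicle, 0.32 to 0.50 log2, were smaller than those of Crk, Sdc4 and Rhog, and their dDAVP arrays lay within 0.19 log2 of each other. Ubald1, for example, was at 9.52 and 9.55 in the dDAVP arrays and at 8.94 to 9.16 in the other 4.

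The scale of the arrays and single arrays moved these differences. After each array's median was subtracted, both dDAVP arrays lay above all others in 5 of the 6 genes, Tcf7l1 and Clec2l being added, and the same order was then held by 10.6% of all genes. After cyclic loess it was 4 of the 6, with Clec2l added, and 8.60% of all genes. The sign of each of the 6 differences from vehicle and of each of the 6 withdrawal differences was the same under these 2 scalings as in the deposited values. Without dDAVP replicate 1 the difference of dDAVP from vehicle was 0.40 for Crk, 0.36 for Sdc4 and 0.37 for Rhog, and without dDAVP replicate 2 it was 0.91, 0.90 and 0.74. Tcf7l1 behaved the opposite way, with 0.61 without dDAVP replicate 1 and 0.05 without dDAVP replicate 2. Clec2l was at 0.30 without vehicle replicate 1 and at 0.06 without vehicle replicate 2. For Wfdc10a the vehicle arrays mattered most: 0.10 without vehicle replicate 1 and 1.07 without vehicle replicate 2. Without both arrays that stand apart the difference of Wfdc10a turned to -0.21. With any single array left out, withdrawal minus dDAVP was within -0.40 to -0.91 for Crk, -0.57 to -1.24 for Sdc4 and -0.40 to -0.87 for Rhog. It was within -1.37 to -2.09 for Wfdc10a, -0.41 to -0.97 for Tcf7l1 and -0.54 to -0.72 for Clec2l. Its sign could not change, since both withdrawal arrays lay below both dDAVP arrays in all 6 genes.

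**Figure D3:**
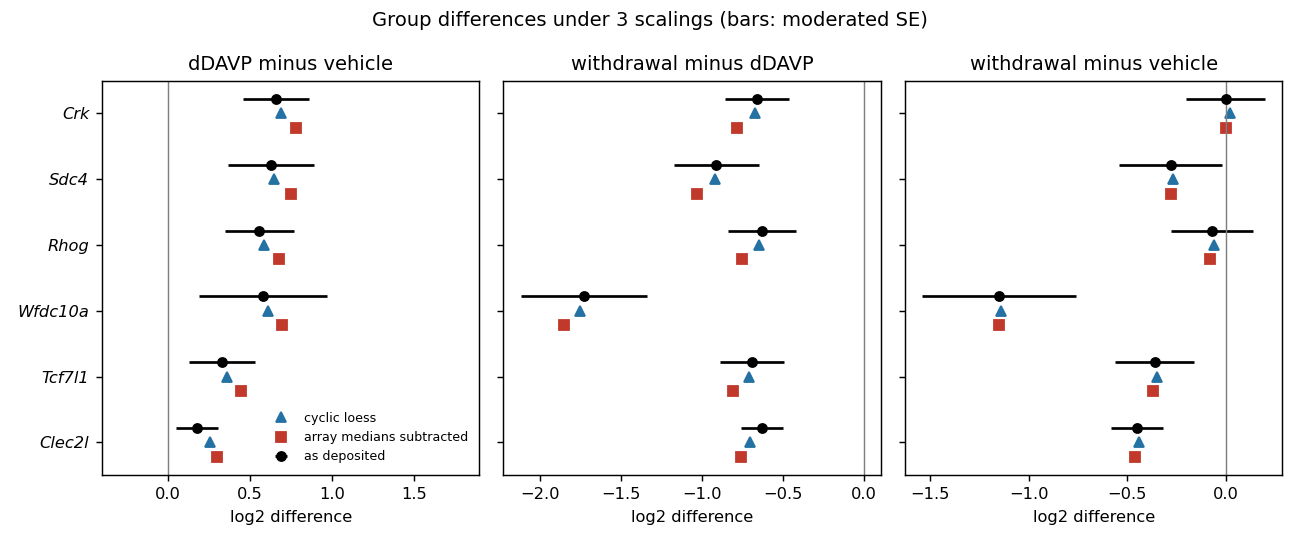
Log2 differences between the groups (horizontal axes, a separate scale for each panel) for the 6 genes, as deposited (black circles, bars are the moderated SE), after cyclic loess (blue triangles) and with array medians subtracted (red squares). Withdrawal minus vehicle lies close to 0 for Crk and Rhog and is lowest for Wfdc10a, at -1.15 as deposited.

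Withdrawal and vehicle were also compared. The choice of genes drew on the arrays of both groups and favoured low withdrawal arrays, so the differences of the 6 genes are again descriptions, with no test. Crk was back at the vehicle mean, with a difference of 0.00 ± 0.20 log2 (moderated SE). Rhog differed by -0.07 ± 0.21 and Sdc4 by -0.28 ± 0.26.

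The other 3 genes had lower levels in withdrawal than in vehicle, with no overlap of the arrays, an order held by 13.1% of all genes. Wfdc10a was 2.22-fold lower (-1.15 ± 0.39 log2), Clec2l 1.37-fold lower (-0.45 ± 0.13) and Tcf7l1 1.28-fold lower (-0.36 ± 0.20). Over all 14168 genes, 0.0% passed in limma with adjusted p of 0.995 or more, and 253 had an unadjusted p under 0.05, 0.642% of genes higher and 1.14% lower. Leaving out vehicle replicate 2 moved Wfdc10a to -0.66, and leaving out vehicle replicate 1 moved it to -1.63. The signs of Crk, Sdc4 and Rhog changed with single arrays left out (-0.15 to 0.16, -0.61 to 0.06 and -0.31 to 0.16).

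By group mean, the order in Sdc4, Rhog, Wfdc10a, Tcf7l1 and Clec2l was dDAVP, then vehicle, then withdrawal. In Sdc4 and Rhog the vehicle and withdrawal arrays overlapped, with differences of -0.28 ± 0.26 and -0.07 ± 0.21 log2 (moderated SE). In Wfdc10a, Tcf7l1 and Clec2l dDAVP and vehicle were the overlapping neighbours. In Crk vehicle and withdrawal shared the lower level.

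The difference between the 2 arrays of a group does not enter the group means, and it also divided the 6 genes. Crk, Sdc4 and Rhog were each higher in vehicle replicate 2 than in replicate 1 (by 0.31, 0.18 and 0.29 log2). All 3 were lower in dDAVP replicate 2 than in replicate 1 (by -0.51, -0.54 and -0.37) and lower in withdrawal replicate 2 (by -0.18, -0.67 and -0.47). This combination of signs was found in 11.4% of all genes. Tcf7l1 and Clec2l had the opposite signs in vehicle (-0.27 and -0.24) and dDAVP (0.55 and 0.17), as did 21.2% and 23.2% of all genes with their full combinations. Wfdc10a was higher in replicate 2 of both vehicle (0.97) and dDAVP (0.62) and lower in replicate 2 of withdrawal (-0.72), a combination of 8.70% of genes. Its replicate differences were larger than those of at least 95.5% of genes in each group. The median size of the difference between replicates over all genes was 0.15, 0.13 and 0.10 log2 in the 3 groups.

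**Figure D4:**
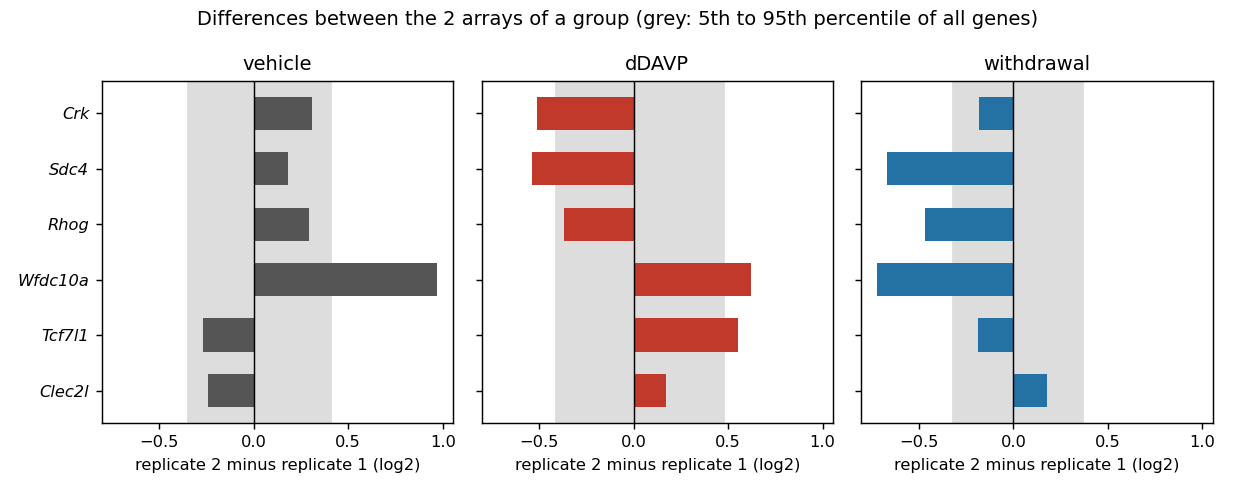
Replicate 2 minus replicate 1 (horizontal axis, log2) for the 6 genes in each group, with the span from the 5th to the 95th percentile of all genes in grey. Crk, Sdc4 and Rhog point the same way in all 3 groups, and Tcf7l1 and Clec2l point the opposite way in vehicle and dDAVP.

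Single markers of several cell types had the same signs between replicates as Crk, Sdc4 and Rhog. They were 11 of the 36 measured, against 11.4% of all genes: Aqp2, Aqp4 and Fxyd4 of 6 principal cell markers, Slc14a2, the thin limb Slc4a11, Slc4a1 of 3 intercalated cell markers, Plvap of 4 endothelial, Postn of 4 fibroblast, Cd68 and Adgre1 of 5 leukocyte and Acta2 of 3 muscle markers. Some of these signs rest on nearly level replicates. Plvap was at 12.06 and 12.05 in dDAVP, and in withdrawal Fxyd4 was at 12.86 and 12.84 and Postn at 7.60 and 7.55. Slc4a1 was at 8.43 and 10.24 in vehicle, 10.59 and 9.58 in dDAVP, and 10.25 and 8.65 in withdrawal. Summed intensities follow the brightest marker of a list. The 3 intercalated cell markers summed to 633.7 and 1576, 1877 and 1108, and 1625 and 704.1. Atp6v1b1 had these signs in vehicle (7.55 and 8.05) and withdrawal (8.22 and 7.56) but was nearly level in dDAVP (7.94 and 7.96). Slc26a4 did not have these signs. The 5 leukocyte markers summed to 1679 and 2422, 2277 and 1466, and 2190 and 1972, but Ptprc, Cd3e and Ms4a1 were lower in vehicle replicate 2 than in replicate 1. The part of these cell types in the differences of the 6 genes was not tested. Of the 36 measured markers 3 had both dDAVP arrays above all others, Aqp2, Avpr2 and the endothelial Plvap, against 3.14% of all genes. Of the 11 summed lists 1 did, the 4 endothelial markers (5813 and 5941 in dDAVP against 4901 to 5806 in the other 4 arrays). That sum follows Plvap (0.13 log2 for dDAVP minus vehicle), since Pecam1 (-0.03), Kdr (-0.03) and Cdh5 (-0.25) had no higher mean in dDAVP. The 6 principal cell markers together did not, with 25010 and 26280 in vehicle, 26770 and 26020 in dDAVP, and 26770 and 23720 in withdrawal. The part of endothelial cells was not tested either.

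Genes with the most similar levels over the 6 arrays were sought among the 3588 other genes with a range of at least 0.5 log2, by Pearson's r, given here as a measure of likeness over 6 arrays that share their groups. For Crk they were the small GTPase Ralb (r = 0.984), the sorting nexin Snx27 (0.981) and the kinase Nek7 (0.978). For Sdc4 they were the lipase maturation factor Lmf2 (0.993), the glycolipid transfer protein Gltp (0.983) and the secretory pathway GTPase Rab1b (0.982). Gltp also led for Rhog (0.992), followed by the phosphatidylinositol transfer protein Pitpnb (0.984) and Sdc4 itself (0.977). All of these apart from Sdc4 had smaller differences, from 0.19 to 0.39 log2 for dDAVP minus vehicle.

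The other 3 genes had different nearest genes. Those of Tcf7l1 were Ggt1, a gamma-glutamyl transferase (r = 0.990), Papss1, which makes the activated sulphate donor (0.985), and Wwc2 (0.976). Wwc2 was also among those of Clec2l (0.942), after Plcxd3 (0.969) and the endothelial receptor Gpr182 (0.946). For Wfdc10a the likeness was lower, with Pigv, an enzyme of GPI anchor synthesis, at 0.960, the DNA polymerase subunit Pold4 at 0.923 and the sterol acyltransferase Soat1 at 0.922.

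The relatives and partners of the 6 genes were taken from 6 lists of 233 genes, of which 178 were measured besides the 6. None of the 178 passed the limma test adjusted over all genes in any of the 3 comparisons, nor did any other gene in dDAVP against vehicle (0.0%, smallest adjusted p 0.549) or in withdrawal against dDAVP (0.0%, smallest adjusted p 0.260). With unadjusted p under 0.05 in limma, 1 was higher and 12 lower in dDAVP than in vehicle, where 0.572% of all genes were higher and 6.85% lower. In withdrawal against dDAVP 18 were higher and 2 lower, against 17.3% and 1.64% of all genes. In withdrawal against vehicle 0 were higher and 2 lower, against 0.642% and 1.14% of all genes. Both dDAVP arrays lay above all others in 6 of the 178, against 3.14% of all genes.

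Around Crk, 23 of 30 adaptor genes were measured, with median differences of -0.02 log2 for dDAVP minus vehicle and -0.02 for withdrawal minus dDAVP. Its close relative Crkl was at 8.91 and 9.21 in vehicle, 9.22 and 9.01 in dDAVP, and 9.17 and 8.99 in withdrawal, with overlapping arrays in all 3 groups. The scaffolds Bcar1 and Pxn, which Crk binds when they are phosphorylated, differed by 0.08 ± 0.15 and 0.02 ± 0.11 log2 in dDAVP. The Rhog effectors Elmo1 and Elmo2 differed by -0.11 ± 0.21 and -0.07 ± 0.11. The docking protein Gab1 had the smallest p of the list in withdrawal against dDAVP (-0.46 ± 0.10, adjusted p = 0.260 in limma), with 8.50 and 8.53 in dDAVP and at most 8.43 in the other arrays. It also had the smallest p in withdrawal against vehicle (-0.28 ± 0.10), followed by Bcar1 (0.34 ± 0.15). The other genes of smallest p were the scaffold Nedd9 (-0.27 ± 0.11) and the adaptor Nck2 (0.32 ± 0.17) in dDAVP against vehicle, and the kinase Abl2 (0.33 ± 0.11) in withdrawal against dDAVP. Rapgef1 and Dock1, exchange factors that act with Crk, were not analysed here.

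Rac1, on which Rhog signalling converges, was at 11.88 and 11.90 in dDAVP against 11.80 to 11.88 in the other 4 arrays. Cdc42 was at 12.50 and 12.51 against 12.31 to 12.41, so that both dDAVP arrays lay above the others, by less than 0.10 log2 (difference from vehicle 0.14 ± 0.09). Rhoa (-0.12 ± 0.11) and Rhob (0.00 ± 0.12) had no higher level in dDAVP.

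The other syndecans did not share the levels of Sdc4. Sdc1, the epithelial syndecan, was at 8.91 and 9.38 in vehicle, 9.14 and 8.85 in dDAVP, and 9.44 and 9.36 in withdrawal, lower in dDAVP than in withdrawal by 0.40 ± 0.18 log2. Sdc2 differed by 0.05 ± 0.10 and Sdc3 by -0.22 ± 0.10 for dDAVP minus vehicle. The syndecan-binding proteins Sdcbp (syntenin) and Gipc1 (synectin) differed by 0.01 ± 0.10 and -0.11 ± 0.13. Over 31 measured of 39 genes of syndecans, glypicans and heparan sulphate synthesis the median differences were -0.04 for dDAVP minus vehicle and 0.06 for withdrawal minus dDAVP. The smallest p were those of B3galt6 (-0.29 ± 0.11) and Sdc3 in dDAVP against vehicle, of Xylt1 (0.28 ± 0.10), which starts the sugar chain, and the glypican Gpc2 (0.28 ± 0.10) in withdrawal against dDAVP, and of Prkca (0.29 ± 0.19) and Gpc1 (0.14 ± 0.09) in withdrawal against vehicle. Outside the rule for named genes, and chosen after its values were seen, B3gat3, an enzyme that builds the linker on which heparan sulphate grows, had both dDAVP arrays above the others (9.23 and 8.70 against 8.46 to 8.66).

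Of 26 WAP domain genes, 14 were measured besides Wfdc10a, and 1 of them was higher in dDAVP than in vehicle by its mean, as were 22.1% of all genes. The median differences were -0.21 for dDAVP minus vehicle and 0.19 for withdrawal minus dDAVP, against -0.11 and 0.14 for all genes. Wfdc2, a secreted epithelial protein, was at 11.49 and 11.17 in vehicle, 10.83 and 11.25 in dDAVP, and 11.17 and 11.20 in withdrawal. The protease inhibitor Slpi (-0.18 ± 0.15) and the epididymal inhibitor Eppin (-0.11 ± 0.23) also had means below vehicle in dDAVP. The smallest p were those of Wfdc5 (-0.27 ± 0.11) and Wfdc11 (-0.24 ± 0.10) in dDAVP against vehicle, of Wfdc5 (0.34 ± 0.11) and Wfdc18 (0.39 ± 0.15) in withdrawal against dDAVP, and of Slpi (0.22 ± 0.15) and Wfdc1 (0.12 ± 0.09) in withdrawal against vehicle. None of the 14 had both dDAVP arrays above the others, an order held by only 3.14% of all genes.

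Sdc4 and Wfdc10a lie near each other on chromosome 3, in a stretch that holds many WAP domain genes. In the RefSeq order 16 annotated genes lie between them, 12 of these protein-coding and 6 measured. These 6, Dbndd2, Pigt, Wfdc2, Eppin, Wfdc6b and Wfdc9, and the 5 nearest measured genes on each outer side gave 16 neighbours. Their differences ran from -0.34 to 0.16 log2 for dDAVP minus vehicle and from -0.15 to 0.40 for withdrawal minus dDAVP. None of the 16 had both dDAVP arrays above the others, an order held by only 3.14% of all genes. In limma adjusted over all genes 0 passed. At an unadjusted p under 0.05 in limma there were 5, all higher in withdrawal than in dDAVP, as were 17.3% of all genes. Wfdc9, next to Wfdc10a, was at 7.28 and 7.27, 6.98 and 7.19, and 7.22 and 7.20. Wfdc11, on its other side, was at 9.53 and 9.73, 9.38 and 9.41, and 9.57 and 9.59. Dbndd2 (0.11 and -0.15), Pigt (0.16 and -0.05) and, on the outer side, Dnttip1 (0.01 and -0.11) had the signs of Sdc4 and Wfdc10a in both differences. Their differences were smaller, and Sdc4 and Wfdc10a were themselves chosen for this pattern.

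**Figure D5:**
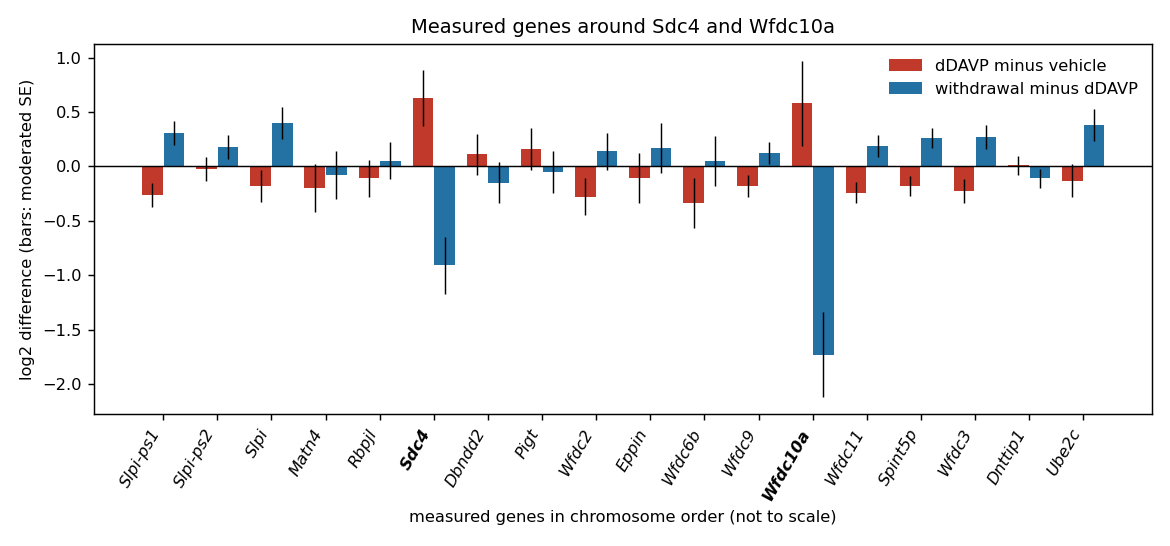
Log2 differences (vertical axis, bars are the moderated SE) of dDAVP minus vehicle (red) and withdrawal minus dDAVP (blue) for Sdc4, Wfdc10a and their 16 measured neighbours in chromosome order, not to scale. Withdrawal minus dDAVP is -0.91 in Sdc4 and -1.73 in Wfdc10a and no lower than -0.15 in the neighbours.

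Around Tcf7l1, 50 of 61 genes of TCF and Wnt signalling were measured, with medians of -0.06 log2 for dDAVP minus vehicle and 0.09 for withdrawal minus dDAVP. Its relatives Tcf7 (-0.22 ± 0.10) and Lef1 (-0.19 ± 0.09) had lower means in dDAVP than in vehicle, opposite in sign to the brightest probe set of Tcf7l1, and neither passed. Beta-catenin (Ctnnb1) differed by 0.03 ± 0.15 and the feedback target Axin2 by -0.17 ± 0.13. The smallest p in dDAVP against vehicle were those of Apc, a scaffold that destabilises beta-catenin (-0.37 ± 0.09, adjusted p = 0.549 in limma), and the Wnt inhibitor Dkk1 (-0.45 ± 0.14). In withdrawal against dDAVP they were those of the Wnt receptor Fzd5 (0.33 ± 0.09) and Apc (0.33 ± 0.09), and in withdrawal against vehicle those of Dvl1 (-0.29 ± 0.11) and Fzd5 (0.22 ± 0.09). Pygo2, a co-activator of beta-catenin named after its values were seen, lay higher in both dDAVP arrays (11.10 and 11.19 against 10.87 to 10.98 in the other 4 arrays), with a difference from vehicle of 0.25 ± 0.10 that did not pass. Tcf7l2 was not analysed here.

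Around Clec2l, 32 of 36 listed C-type lectin genes were measured. None of the 32 had a higher mean in dDAVP than in vehicle, with a median difference of -0.22 log2, and 29 had a higher mean in withdrawal than in dDAVP, with a median of 0.22. Most genes went the same way, 77.9% with a lower mean in dDAVP than in vehicle (median of all genes -0.11) and 74.9% with a higher mean in withdrawal than in dDAVP (median 0.14). Clec2d, which belongs to the same subfamily as Clec2l, was at 7.87 and 8.14 in vehicle, 7.58 and 7.68 in dDAVP, and 8.08 and 7.79 in withdrawal. Clec2g was at 8.97 and 8.84, 8.09 and 8.70, and 8.65 and 8.74. Both dDAVP arrays of Clec2d lay below its other 4 arrays, while those of Clec2g overlapped withdrawal, and neither gene passed. Klrb1 and Cd69 differed by -0.13 ± 0.13 and -0.27 ± 0.14 for dDAVP minus vehicle. The smallest p in dDAVP against vehicle were those of Klrk1 (-0.35 ± 0.10) and Clec2d (-0.38 ± 0.14), and in withdrawal against vehicle those of Clec2dl1 (0.22 ± 0.10) and Clec1a (-0.71 ± 0.35). In withdrawal against dDAVP they were those of the activating receptor Klrk1 (0.47 ± 0.10) and of Clec2dl1 (0.45 ± 0.10), both with an adjusted p of 0.260 in limma.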

How the data were processed

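The authors deposited 1 intensity per probe set and array, made with RMA according to the submitters' processing notes and on a linear scale (30.2 to 10778.7). Log2 values were taken here. The version of RMA is not given in the sources. RMA usually equalises probe intensities between arrays, so a change common to most genes would be reduced. RNA was extracted with Trizol and labelled from 300 ng, per the labels' protocols. Of 28524 probe sets, 14947 carried 1 gene symbol in the platform annotation, 318 several and 13259 were unlisted. The brightest probe set stood for each of 14168 genes, with no filter on dim ones. The annotation was matched to the RefSeq gene table of GRCr8, used for names and gene order only.

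A single linear model, with 1 mean for each of the 3 groups, was fitted to all genes with limma 3.58.1 in R 4.3.3 (lmFit, eBayes, 3 residual and 3.21 prior degrees of freedom, two-sided, Benjamini-Hochberg adjustment over all genes, threshold 0.05). In data simulated for withdrawal against vehicle, with 200 of 14168 genes changed, the test recovered 29.9% at 0.60, 71.6% at 1 and 87.9% at 2 log2, with 6 false calls. Each gene was drawn independently from its own mean and residual SD, without shifts common to an array. The residual SD, estimated from 3 degrees of freedom, was taken as the true one. The recovery in the real arrays, which have shifts common to an array, may differ. No scan dates or batches were used here.

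The 6 genes, the related lists and the alternatives were chosen with earlier results of these data known. A test of the 6 genes in withdrawal against vehicle had been planned; it is not given, since their choice drew on these arrays. Named genes were the 6, the 3 most similar to each, the 8 with the largest distance of the dDAVP arrays from the rest, and in each related list the closest relatives the 2 with the smallest p in each comparison. Some items, and the summary of 1 related list, are not reported here. Loci without a name, microRNAs and the receptors of the olfactory and vomeronasal families were not named as similar or most distant genes. The neighbours, the order of replicates and the motifs were added after the values were seen.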

Additional observations from a re-analysis of the deposited data

How the results depend on the processing

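The alternatives were 2 other scalings, no dim genes, the mean of a gene's probe sets, another eBayes setting, a replicate block, each array left out and both arrays that stand apart left out. The number of genes with the dDAVP arrays above all others was 445, and 1218 after cyclic loess, 1506 with array medians subtracted, 1757 without both arrays that stand apart, and 513 to 1686 with 1 array left out, where fewer arrays have to be in order. Among the 6 genes the count was 3, and 5 with medians subtracted or without both arrays that stand apart, and 3 to 6 with 1 array left out. The difference of Wfdc10a for dDAVP minus vehicle reversed to -0.21 without both arrays that stand apart; the cause was not tested. No gene passed in withdrawal against vehicle under any of these alternatives, and none of the related genes in any comparison. Genes at an unadjusted p under 0.05 in withdrawal against vehicle numbered 253, and 161 without dim genes, where fewer were tested, and 117 to 665 with 1 array left out.

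With the replicate number as a block (replicate block) they numbered 128. Whether the numbers pair the arrays is not known. The replicate differences of 2 groups correlated over genes at -0.62 for vehicle and dDAVP. The values were 0.00 for vehicle and withdrawal and -0.11 for dDAVP and withdrawal. They cannot decide the pairing, since vehicle replicate 1 and dDAVP replicate 2, which stand apart, enter them. With 2 arrays in each group, and signal over background unknown here, small differences and dim probe sets carry little weight.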

Other observations

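At least 1.5-fold higher in dDAVP than in vehicle and at least 1.5-fold lower in withdrawal than in dDAVP were 6 genes, Crk, Sdc4 and 4 others, which were chosen here after their values were seen. Arpc4, a subunit of the Arp2/3 complex that branches actin filaments, was at 9.41 and 8.95 in vehicle, 10.23 and 9.45 in dDAVP, and 8.90 and 9.38 in withdrawal. Its lower dDAVP array lay only 0.04 log2 above the highest other array. Itga1, the alpha-1 integrin subunit that binds collagen, was at 9.49 and 8.51, 10.26 and 9.48, and 9.97 and 8.34, so that its groups overlapped. Slc4a1, the chloride and bicarbonate exchanger of intercalated cells, was at 8.43 and 10.24, 10.59 and 9.58, and 10.25 and 8.65. Its replicates differed within each group with the same signs as those of Crk, Sdc4 and Rhog. Ypel4 was at 11.89 in dDAVP replicate 2 and at 6.67 to 7.06 in the other 5 arrays.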
